A study of Mus musculus with 57 samples.

Results

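The 9 genes for carrier proteins that visceral endoderm secretes were followed through the 19 conditions of the series: Apoa1, Apoa2, Apob, Apoe, Apom, Ttr, Rbp4, Afp and Trf. They were taken by name, through the Ensembl identifiers of the count table and GENCODE M21, and all 9 were found among its 55450 genes. The series holds 57 bulk RNA-seq libraries, with 3 replicates of each condition, from Sox1-EGFP/FoxA2mCherry cells, a reporter line of mouse embryonic stem cells (ESCs) that is 1 clone. EGFP stands in place of one Sox1 allele in all of these cells, and mCherry is joined to the 3′ end of FoxA2, so that the sorting gates are set by these 2 reporters. Per the study's methods, cells were seeded overnight in serum medium with leukaemia inhibitory factor (LIF) before the change to N2B27 with retinoic acid (RA). Sox1-FoxA2- cells were sorted at D0, before RA. All 4 gates (Sox1-FoxA2-, Sox1+FoxA2-, Sox1-FoxA2+ and Sox1+FoxA2+) were sorted at D2, D4 and D6 of culture in N2B27 with 1 uM RA. For the progeny, cells of the last 3 gates were sorted at D2, replated in serum medium with 1 uM RA, and taken at D4 or D6. Progeny carry the name of their gate at D2 and were not sorted again when taken, whereas sorted cells were gated on the day they were taken. Replating, serum and the day of gating therefore cannot be told apart in any comparison of progeny with directly sorted cells. RA, serum, LIF and basal medium likewise cannot be told apart in comparisons with D0 cells.

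Visceral endoderm is the epithelium around the early embryo that feeds it before a placenta and a liver are formed. It takes up nutrients at its outer face and secretes many of the plasma proteins that the liver makes later. Apob is the backbone protein of large lipoprotein particles, Apoa1 and Apoa2 are the main proteins of high-density lipoprotein, Apoe is the exchangeable ligand of lipoprotein receptors, and Apom carries small lipids on high-density particles. Rbp4 carries retinol in plasma and travels there bound to transthyretin (Ttr), which also carries thyroid hormone. Afp is the albumin of the fetus, and Trf is transferrin, the iron carrier.

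Depth and counting set what could be seen of these genes. Library totals ran from 10170632 to 81845651 counts on genes, with a median of 36694379. All 1287 protein-coding genes that lie wholly inside another gene had 0 counts in all libraries, against 2.82% of the 11728 that overlap none, and reads in overlaps were thus lost. Of the members, 63.8% of the exon bases of Afp (chr5:90490737-90508907, + strand, GRCm38) lie inside Gm43449 on the opposite strand, and 95.9% of those of Trf lie inside Gm20425 on its own strand. Both genes were undercounted in every library, and the other 7 members overlap no gene. Sox1 lies wholly inside Sox1ot, so it had 0 counts everywhere and could not check its gate. Normalized counts of Foxa2 were 1093 to 3300 in the 15 libraries of the Sox1-FoxA2+ gate and 0 to 403 in the FoxA2- gates after D0. In the Sox1+FoxA2+ gate at D6 they were 0, 728 and 76.6, so that the library of replicate 1 did not show the RNA its label names. The library with 76.6 lay within the range of Sox1+FoxA2- cells at D6, 20.3 to 131, so its label was not borne out by this RNA either. At D4 the lowest sorted Sox1+FoxA2+ library, at 214.4, also lay within the range of Sox1+FoxA2- cells. Those at 527.7 and 1090.7 lay above that range. The label of the lowest was not borne out, which limits the D4 comparisons of sorted Sox1+FoxA2+ cells below. In D4 progeny, Sox1+FoxA2+ libraries at 264.2 and 325.9 lay below the highest Sox1+FoxA2- library, at 403, and that at 1150.3 above it. Progeny were gated at D2, so this RNA does not check their gate.

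Because the gates were set on FoxA2, a factor of the forkhead family, the RefSeq promoters of the members (GRCm38.p6, from 250 bases before the start to 50 after it) were searched on both strands for the forkhead core letters TGTTTAC and TGTTTGC. The RefSeq table matched 7 of the 9 members (all but Ttr and Trf), and its start lay within 50 bases of that of GENCODE for 6 of them but farther away for Apom. TGTTTAC occurs in 3.66% and TGTTTGC in 5.08% of 32544 promoters. Apoa1 holds TGTTTGC at -88 and -75, Apoa2 holds TGTTTAC at -77, Afp holds TGTTTGC at -55, and Apob and Rbp4 hold one core each on the other strand, at -121 and -241. Apoe and Apom hold neither. Promoters of 3 members are shown with core letters in capitals, Apoa1 and Afp for their cores and Apoe as the only member called in the main tests below. That call was between progeny and directly sorted cells, not between gates. The promoters are at chr9:46228380-46228679, chr5:90490464-90490763 and, on the minus strand, chr7:19699139-19699438.
Apoa1: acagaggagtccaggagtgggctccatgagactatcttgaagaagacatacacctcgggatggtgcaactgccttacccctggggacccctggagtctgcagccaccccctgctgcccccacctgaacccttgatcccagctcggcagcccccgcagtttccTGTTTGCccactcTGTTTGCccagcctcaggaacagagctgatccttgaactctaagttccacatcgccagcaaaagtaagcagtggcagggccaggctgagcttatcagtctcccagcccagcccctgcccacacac
Afp: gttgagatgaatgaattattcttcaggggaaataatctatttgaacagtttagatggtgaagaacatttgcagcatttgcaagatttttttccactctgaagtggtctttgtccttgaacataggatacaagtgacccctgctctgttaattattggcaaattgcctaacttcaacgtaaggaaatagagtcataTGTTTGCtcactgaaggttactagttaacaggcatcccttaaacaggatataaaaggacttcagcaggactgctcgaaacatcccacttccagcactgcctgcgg
Apoe: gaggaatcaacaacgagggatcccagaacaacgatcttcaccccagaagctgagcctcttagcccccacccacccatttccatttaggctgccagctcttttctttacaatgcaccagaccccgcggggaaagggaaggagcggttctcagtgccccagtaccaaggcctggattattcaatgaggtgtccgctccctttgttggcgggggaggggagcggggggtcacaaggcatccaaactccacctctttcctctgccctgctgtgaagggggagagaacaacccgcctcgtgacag

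Of the 9 members, Apoe was the one present at a substantial level everywhere. It had counts in 57 of 57 libraries and made up 80.9% of the 145333 counts of all members. Apob had a count in 51 libraries, Rbp4 in 43, Apom in 36, Ttr in 27, Afp in 23, Apoa1 in 18, Apoa2 in 5 and Trf in 3. Over the 8 members other than Apoe, all 3 replicates had a count in 41 of 152 pairs of a gene and a condition, and none had in 49. In the remaining pairs 1 or 2 of the 3 libraries had a count, so that replicates of one gate often differed, with 0 counts in one and many in another.

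**Figure D1:**
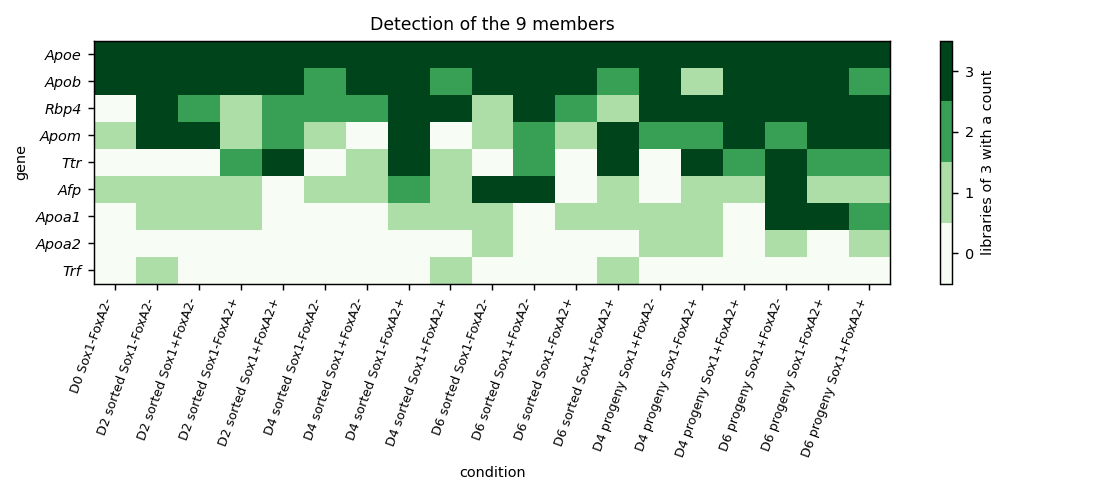
Number of the 3 libraries of each condition (columns) in which each member (rows) had at least 1 count, from white for 0 to dark green for 3. Apoe is detected in all 57 libraries, Apob in 51, and Apoa2 and Trf in 5 and 3.

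Per length of exon, the median over the 57 libraries was 23.0 CPM per kilobase for Apoe, 0.264 for Apob, 0.600 for Rbp4 and 0.520 for Apom. For Ttr, Afp, Apoa1, Apoa2 and Trf it was 0. These levels are on exon length outside other genes, whereas the counts also hold reads from introns.

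Apoe was already high in D0 cells, at 2633, 1212 and 4469 normalized counts (DESeq2 size factors). At D2 the 4 gates had means of 1598 to 2120 normalized counts. Sox1-FoxA2+ cells had 2465, 1684 and 1245, and Sox1+FoxA2- cells had 2224, 2479 and 1658. The ranges overlapped, and the log2 fold change between these gates was -0.21 (SE 0.36, adjusted p = 1 by the quasi-likelihood test of edgeR, after Benjamini-Hochberg adjustment over all genes). None of the 5 members tested was called at D2, where 0.00491% of 20369 genes were.

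At D4 Apoe varied most between replicates of one gate. Sox1-FoxA2+ cells had 6148, 1792 and 1032 normalized counts, against 2279.5, 2406 and 3894 in Sox1+FoxA2- cells, and the log2 fold change was 0.16 (SE 0.87, adjusted p = 1, edgeR). Without replicate 1 of the Sox1-FoxA2+ cells it was -0.92. Sox1+FoxA2+ cells had 1034, 61.4 and 1613, all below the Sox1+FoxA2- libraries, with a log2 fold change of -1.88 (SE 0.90, adjusted p = 0.716, edgeR). Libraries of these gates did not overlap for 10.8% of all genes. The library with 61.4 also held 624 of the 1063 counts of Apoa1 in the whole series. Of the 6 members tested none passed for Sox1-FoxA2+ against Sox1+FoxA2- cells, where 0.266% of genes were called, nor for Sox1+FoxA2+ cells against Sox1+FoxA2- cells, where edgeR called 0% of 22946 genes (1565 had an unadjusted p under 0.05). Against Sox1-FoxA2+ cells Apoe had a log2 fold change of -2.04 (SE 0.90, adjusted p = 0.470, edgeR), and no member was called, beside 0.475% of genes.

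At D6 the means of Apoe were highest in the FoxA2+ gates. Sox1-FoxA2+ cells had 4245, 3949 and 4004 normalized counts, the narrowest spread of all Apoe groups relative to its mean (4066 ± 157, SD, n = 3). Sox1+FoxA2- cells had 1529.8, 374 and 2210.1, and Sox1-FoxA2- cells had 1425, 1661 and 2702. All 3 Sox1-FoxA2+ libraries were above all 6 of the FoxA2- gates. Of all genes, 23.2% did not overlap between Sox1-FoxA2+ and Sox1+FoxA2- libraries, and 14.9% between Sox1-FoxA2+ and Sox1-FoxA2- libraries. Against Sox1+FoxA2- cells the log2 fold change was 1.77 (SE 0.52), with an adjusted p of 0.0922 that missed the threshold of 0.05, and edgeR with a replicate block gave 1.95 and an adjusted p of 0.0167. Against Sox1-FoxA2- cells it was 1.08 (SE 0.51, adjusted p = 0.476, edgeR). Sox1+FoxA2+ cells had 2267, 3379 and 6255, also above all Sox1+FoxA2- libraries, with a log2 fold change of 1.47 (SE 0.51, adjusted p = 1, edgeR). Without replicate 1, whose Foxa2 count was 0, it was 1.79 (adjusted p = 0.205, edgeR). The highest Sox1+FoxA2+ value, 6255, was that of replicate 3, whose Foxa2 level of 76.6 did not bear out its label either. With each library of these gates left out in turn, the log2 fold change ranged from 0.998 to 1.996. Libraries of the Sox1+FoxA2+ and Sox1+FoxA2- gates did not overlap for 8.99% of all genes.

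With edgeR without the block, none of the 7 members tested at D6 was called in any comparison of gates, while DESeq2's Wald test called Apoe in Sox1-FoxA2+ against Sox1+FoxA2- cells (1.64, adjusted p = 0.0484). The share of all genes called was 1.32% for Sox1-FoxA2+ against Sox1+FoxA2- cells and 1% against Sox1-FoxA2- cells. It was 0.0496% for Sox1+FoxA2+ against Sox1+FoxA2- cells and 0.0909% against Sox1-FoxA2+ cells. Over time in Sox1-FoxA2+ cells, Apoe at D6 minus D2 had a log2 fold change of 1.06 (SE 0.51, adjusted p = 0.357, edgeR). Its libraries did not overlap, beside 17.5% of all genes. None of 7 members was called there, beside 2.23% of all genes.

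**Figure D2:**
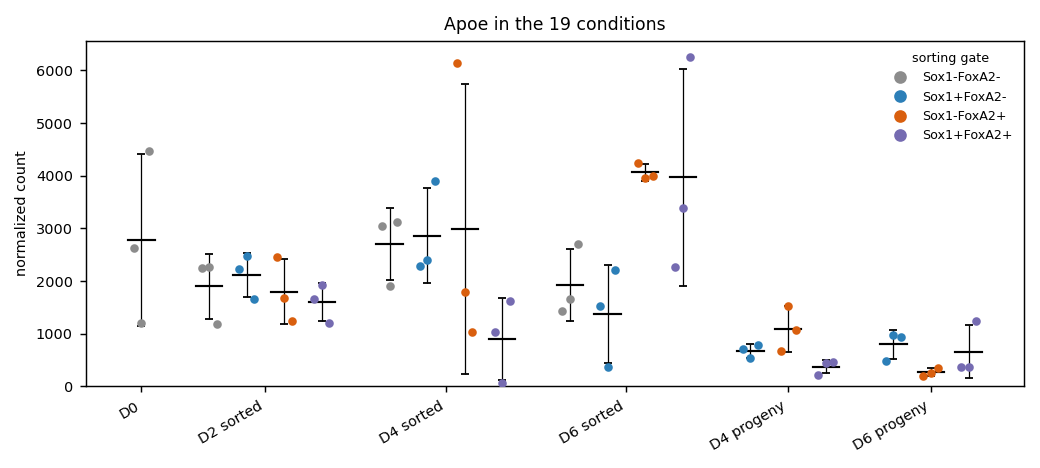
Normalized counts of Apoe in each library (points, coloured by sorting gate), with the mean (bar) and SD (whiskers) of the 3 replicates of each of the 19 conditions. The D6 Sox1-FoxA2+ libraries lie between 3949 and 4245, and those of the same gate in D6 progeny between 197 and 352.

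In D6 progeny, Apoe was lower in all Sox1-FoxA2+ than in all Sox1+FoxA2- libraries. Sox1-FoxA2+ progeny had 197, 255 and 352 normalized counts of Apoe, the lowest mean of the 19 conditions (268 ± 78.5, SD, n = 3). Sox1+FoxA2- progeny had 483, 974 and 935, all above them. Libraries of these groups did not overlap for 26.1% of all genes. The log2 fold change was -1.63 (SE 0.50), with an adjusted p of 0.0699 (edgeR) that missed the threshold. Sox1+FoxA2+ progeny had 361, 372 and 1239.6, with a log2 fold change of 1.30 over Sox1-FoxA2+ progeny (SE 0.50, adjusted p = 0.182, edgeR). Without replicate 3 of the Sox1+FoxA2+ progeny it was 0.35. At D4 of the progeny, Sox1-FoxA2+ cells had 667, 1529 and 1079, against 706, 533 and 789.9 in Sox1+FoxA2- cells (log2 fold change 0.74, SE 0.43, adjusted p = 0.628, edgeR). Sox1+FoxA2+ progeny at D4 had 224, 445 and 459.8, all below the Sox1-FoxA2+ progeny, with a log2 fold change of -1.63 (SE 0.44, adjusted p = 0.111, edgeR). With the replicate block that value was -1.63 and the adjusted p was 0.0170 (edgeR). Libraries of these groups did not overlap for 17.2% of all genes. From D4 to D6 the level in Sox1-FoxA2+ progeny had a log2 fold change of -2.02 (SE 0.44, adjusted p = 0.114, edgeR). Its libraries did not overlap, beside 12.9% of all genes.

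By edgeR without the block no member was called in these comparisons of the progeny. DESeq2's Wald test called Apoe in D6 Sox1-FoxA2+ against Sox1+FoxA2- progeny (adjusted p = 0.0246), in D4 Sox1+FoxA2+ against Sox1-FoxA2+ progeny (adjusted p = 0.0131) and from D4 to D6 (adjusted p = 0.00123). At D4, 4 members were tested. The share of genes called was 1.97% for Sox1-FoxA2+ against Sox1+FoxA2- progeny, 0.00483% for Sox1+FoxA2+ against Sox1+FoxA2- and 0.792% for Sox1+FoxA2+ against Sox1-FoxA2+. At D6, 7 were tested and the shares were 6.91%, 0.18% and 4.63% in the same order. From D4 to D6 in Sox1-FoxA2+ progeny, 0.0897% of genes were called.

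Apoe was called once, in D6 Sox1-FoxA2+ cells between the arms. The progeny libraries were all below the directly sorted ones, and libraries of these groups did not overlap for 14% of all genes. The log2 fold change of Apoe was -3.82 (SE 0.61, adjusted p = 0.00263, edgeR), a fold of 14.1. Apoe was 1 of 7 members tested, beside 0.121% of 25515 genes called, and its p-value was the eighth smallest of all genes. Leaving out each of the 6 libraries in turn gave values from -4.03 to -3.62 with adjusted p from 0.00401 to 0.0380. In Sox1+FoxA2- cells the same comparison gave -0.56 (SE 0.54, adjusted p = 0.603, edgeR), with overlapping libraries. The median of all genes was itself -0.53 in that comparison and 0.03 in Sox1-FoxA2+ cells, and no member was called in Sox1+FoxA2- cells, beside 3.41% of genes. The difference between these effects, tested as an interaction, was -3.26 (SE 0.78). Its unadjusted p of 0.000284 became 0.157 over all genes (edgeR), and no member was called in it, beside 0.0196% of genes. Over both arms, all 18 progeny libraries were below the median of the 39 sorted libraries (508 against 2224 normalized counts, as medians of the arms), and 9 sorted libraries were below the highest progeny library. In the order of the 19 conditions by mean, the ranges of all 18 pairs of neighbours overlapped.

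By correlation over the 19 condition means of log2(CPM + 1), the genes most like Apoe among 29607 were Sqle (r = 0.881), Hmgcs1 (r = 0.831) and Fdft1 (r = 0.831). Sqle is squalene epoxidase, Hmgcs1 makes the precursor of mevalonate, and Fdft1 is squalene synthase. The conditions share days and media, and r is given as a description. For Apob the leading gene was Ptch1, the Hedgehog receptor (r = 0.827). For the sparse members the leading genes were mostly predicted or olfactory receptor genes such as Olfr1204 for Ttr (r = 0.789). Between members r ran from -0.53 for Apoe with Rbp4 to 0.50 for Ttr with Rbp4.

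Apob was highest in Sox1-FoxA2+ cells at D2. Its normalized counts were 632, 471 and 1265 there, against 455, 452 and 214 in Sox1+FoxA2- cells and 301, 232 and 141 in D0 cells. The D2 Sox1-FoxA2+ libraries were above all of these 6. The log2 fold change was 1.08 against Sox1+FoxA2- cells (SE 0.87, adjusted p = 1, edgeR) and 1.82 against D0 cells (SE 0.94, adjusted p = 0.283, edgeR). None of the 6 members tested against D0 was called, where 4.23% of 21037 genes were. Libraries did not overlap for 10.1% of all genes against Sox1+FoxA2- cells and for 22.6% against D0 cells. By D6 sorted Sox1-FoxA2+ cells had 297, 402 and 564, a log2 fold change of -1.02 from D2 (SE 0.79, adjusted p = 0.647, edgeR). In D6 progeny of the same gate they had 58.6, 39.0 and 53.9, all below the sorted cells (log2 fold change -2.93, SE 1.83, adjusted p = 0.513, edgeR). Of all genes, 14% did not overlap in that comparison. In other conditions 1 library often stood apart, as in D4 Sox1+FoxA2+ cells with 141, 0 and 1151.

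Rbp4 and Ttr, which circulate as a complex, were absent from D0 cells, with 0 counts of each in all 3 libraries. Rbp4 had 184, 470 and 218 counts in D4 Sox1-FoxA2+ cells, against 130, 0 and 2 in Sox1+FoxA2- cells. The normalized counts, 170, 265 and 173 against 100, 0 and 2.44, did not overlap, beside 11.4% of all genes. The log2 fold change of 2.49 had an SE of 2.48 (adjusted p = 1, edgeR), and it was 7.52 without replicate 1 of the Sox1+FoxA2- cells. With the replicate block it was 5.27 (adjusted p = 0.983). At D6 it was higher in the Sox1+FoxA2- libraries, at 178, 59.1 and 88.8, than in 2 of the 3 of Sox1-FoxA2+, at 83.5, 15.3 and 0. All sorted Sox1+FoxA2+ libraries of D6 were also below the Sox1+FoxA2- libraries, beside 8.99% of all genes without overlap. In D4 progeny Sox1-FoxA2+ cells had 267, 222 and 36.4 against 23.3, 51.2 and 24.9 (log2 fold change 2.39, SE 1.18, adjusted p = 0.507, edgeR). In D6 progeny they had 139.6, 70.9 and 113 against 50.8, 14.97 and 24.6, without overlap (log2 fold change 1.79, SE 1.01, adjusted p = 0.411, edgeR). Of all genes, 26.1% did not overlap there. Sox1+FoxA2+ progeny at D6 had 93.3, 853 and 37.7, of which 1 library carried the mean (log2 fold change over Sox1+FoxA2- 3.37, SE 1.06, adjusted p = 0.328, edgeR). Without that library, replicate 2, the value was 1.05, and DESeq2's Wald test called it with all libraries (3.42, adjusted p = 0.0273).

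Ttr was patchy. At D2 it had counts in 5 of the 6 libraries of the FoxA2+ gates, at 388, 0 and 2 in Sox1-FoxA2+ cells and 44, 570 and 20 in Sox1+FoxA2+ cells. The 6 libraries of the FoxA2- gates had 0 of 257951217 counts, against 4.28 CPM in the FoxA2+ gates, where 2 libraries held most of the 1024 counts. A limit of 3 counts would be 0.0116 CPM in the FoxA2- gates. That limit takes each count as a separate event, whereas 100% of the Ttr counts above 0 were even, as when both reads of a pair are counted. It is therefore too low, and such limits cover counting error only. At D4 Ttr had counts in 4 of 6 FoxA2+ and 1 of 6 FoxA2- libraries, with 106, 280 and 52 counts in Sox1-FoxA2+ cells. At D6 it had counts in 3 of 6 FoxA2+ libraries, all of them of Sox1+FoxA2+ cells (146, 2 and 8), and in 2 of 6 FoxA2- libraries, both of Sox1+FoxA2- cells (56, 0 and 26). In D4 progeny it had counts in 5 of 6 FoxA2+ and 0 of 3 FoxA2- libraries, and in D6 progeny in 4 of 6 and 3 of 3. Ttr entered 17 comparisons and passed in none (lowest unadjusted p 0.0141, edgeR, at D2).

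Afp, undercounted as given above, had counts in 6 of 6 libraries of the FoxA2- gates at D6 and in 1 of 6 of the FoxA2+ gates. Sox1-FoxA2- cells had 22, 84 and 206 counts and Sox1+FoxA2- cells had 58, 14 and 2, whereas Sox1-FoxA2+ cells had 0, 0 and 0. Its highest value was 422 counts in 1 library of D2 Sox1-FoxA2+ cells, whose other replicates had 0. Afp was called in none of 15 comparisons. At D6, Afp and Apoe were the 2 of 7 members whose Sox1-FoxA2+ and Sox1+FoxA2- libraries did not overlap, in opposite directions, beside 23.2% of all genes tested. In D6 progeny these were Apoe and Rbp4, again in opposite directions, beside 26.1%.

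Apom had its highest count, 570, in D6 Sox1+FoxA2+ cells, whose 3 libraries had 94, 570 and 6. At D4 Sox1-FoxA2+ cells had 52, 70 and 66 counts, Sox1-FoxA2- cells had 120, 0 and 0, and Sox1+FoxA2- and Sox1+FoxA2+ cells had 0 in all libraries. At D4 the libraries of Sox1-FoxA2+ cells did not overlap those of Sox1+FoxA2- cells for 11.4% of all genes, nor those of Sox1+FoxA2+ cells for 17.5%. At D2 it was present in all 6 libraries of the FoxA2- gates and in 3 of 6 of the FoxA2+ gates. Apoa1 was sporadic in sorted cells, where 8 libraries of 39 had a count, and at D6 of the progeny 8 of 9 libraries had 4 to 76 counts. Apoa2 reached at most 40 counts and Trf at most 82, and neither passed the filter on low counts in any comparison.

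**Figure D3:**
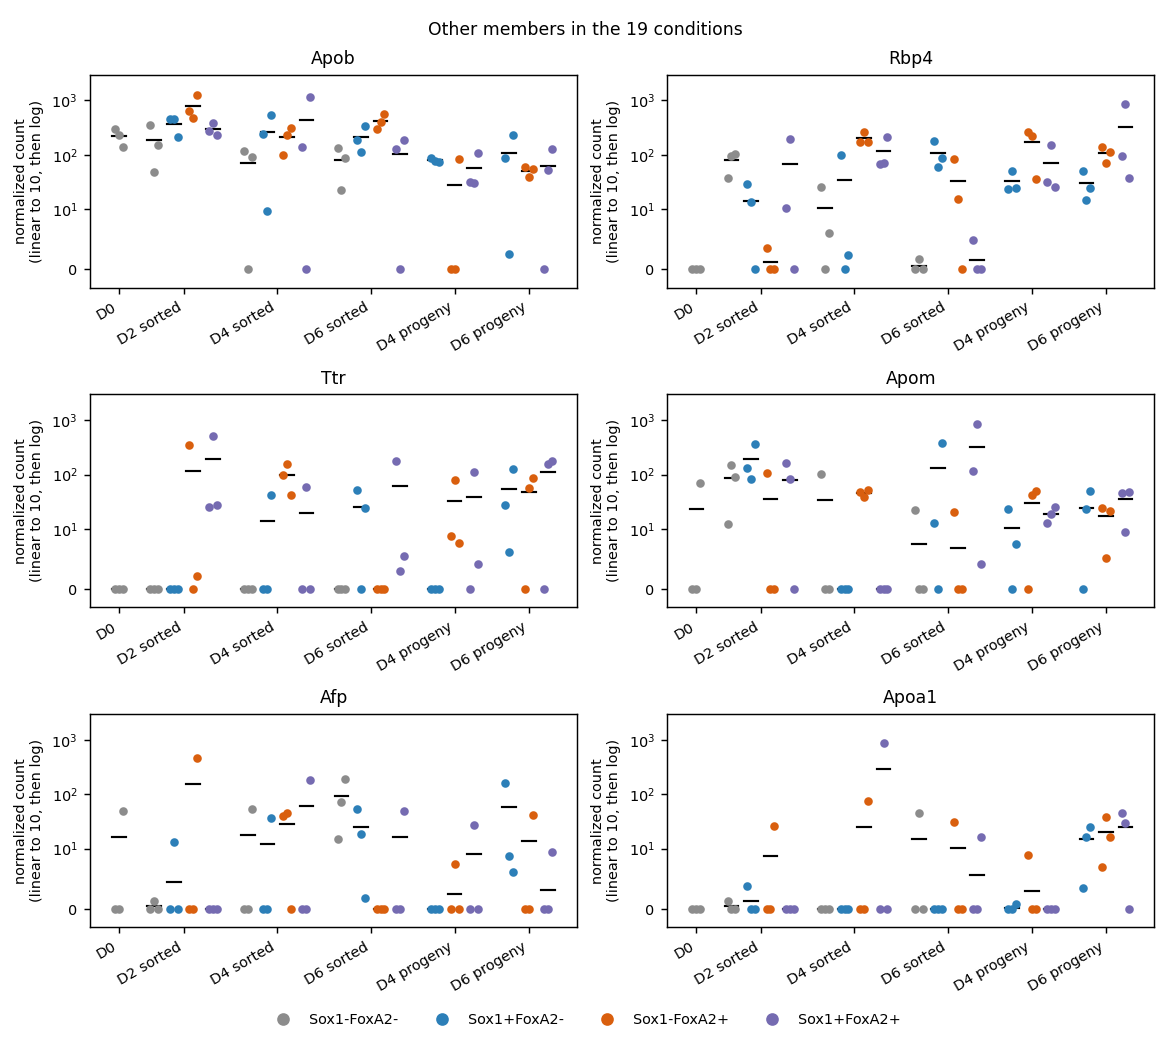
Normalized counts of Apob, Rbp4, Ttr, Apom, Afp and Apoa1 in each library (points, coloured by sorting gate), with the mean of the 3 replicates (bar); the axis is linear up to 10 and logarithmic above. Points of one gate often lie both at 0 and far above it, as for Afp in D2 Sox1-FoxA2+ cells, whose libraries had 0, 0 and 422 counts before normalization.

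The sparse members left wide errors. Over the 20 comparisons, 124 tests of a member were made, of which 1 was called and 21 had an unadjusted p under 0.05. Of the 21, 10 were of Apoe, in comparisons that share libraries. The share of all genes with such a p was 4.43% to 19.3% over the comparisons (edgeR). The SE of the log2 fold change was 0.36 to 0.90 for Apoe. For the other members with counts in both groups it had a median of 2.31, so that differences of several fold could not be called. In bulk libraries, fewer cells that express a gene and less RNA per cell cannot be told apart.

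Related gene lists were followed in the same libraries, with no test between lists. Of the 11 visceral endoderm markers tested, 3 rose in D6 Sox1-FoxA2+ against Sox1+FoxA2- cells, 0 fell, and the median log2 fold change was 2.95. The 9 members had 7 tested, 0 called and a median of -1.41, and the median of all genes was -0.30. That median of the members includes Afp and Ttr, at 0 in all Sox1-FoxA2+ libraries of D6, whose fitted values are no bound. Apoe, with 80.9% of the member counts over all libraries, had a higher fitted value in Sox1-FoxA2+ cells that missed the threshold by edgeR, as given above. The markers that rose were Cubn (5.83, SE 0.82, adjusted p = 0.00271), Dab2 (4.97, SE 0.62, adjusted p = 0.000247) and Lrp2 (2.95, SE 0.57, adjusted p = 0.00980, all edgeR). Cubilin and megalin, the products of Cubn and Lrp2, are endocytic receptors for lipoprotein, retinol carrier and transferrin, and Dab2 is their adaptor. The same 3 genes rose in D6 progeny, by 2.72, 2.73 and 3.70 on the log2 scale. Per length, D6 Sox1-FoxA2+ progeny had a mean level of 134 CPM per kilobase of Lrp2 and 3.21 of Apoe, in the condition with the lowest Apoe mean. These levels divide counts that also hold intron reads by exon length, so they do not compare the genes evenly. Without replicate 3 of the D6 Sox1+FoxA2- cells 1 visceral endoderm marker was called instead of 3, and with the replicate block Lrp2 at D6 had 2.87 (adjusted p = 0.187, edgeR).

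Of the 13 receptors and uptake genes, a list that shares these 3 with the visceral endoderm markers, the same 3 rose at D6, and in D6 progeny 4 rose and 2 fell. The fourth was Stra6, the membrane receptor of Rbp4 (log2 fold change 3.47, SE 0.42, adjusted p = 0.000127, edgeR). Lipoprotein assembly had 1 of 9 tested genes called in each arm, P4hb, a subunit of the lipid transfer complex and a general folding enzyme (3.25 at D6 and 1.83 in D6 progeny). Mttp, its lipid transfer subunit, had counts in all 57 libraries but was not called. Of the other apolipoproteins, 4 of 9 were tested and Clu (clusterin) rose in D6 progeny (3.57, SE 0.46, adjusted p = 0.000627, edgeR). Crabp2, a cellular RA binding protein, fell by 2.58 there, as 1 of 6 tested genes of retinoid binding. None of the other plasma proteins was called, of 12 tested at D6 and 10 in D6 progeny, and their medians were -1.88 and -1.06. Serpinc1 (antithrombin), which had the most counts of them over all libraries, averaged 4.21 against 68.5 normalized counts at D6 and 74.0 against 164 in D6 progeny. F2 (prothrombin) averaged 342 against 166 and 384 against 8.23, with a log2 fold change of 5.69 in the progeny (SE 1.64, adjusted p = 0.0577, edgeR). Cp (ceruloplasmin) averaged 157 against 49.2 at D6, and Gc (vitamin D binding protein) 147 against 97.9.

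The endoderm transcription factors had 3 of 11 higher at D6 and 6 of 11 in D6 progeny, with medians of 3.77 and 2.36. Gata4 had log2 fold changes of 7.18 and 4.52, and Gata6 of 5.77 and 2.65. Sox7 had 5.62 at D6 (SE 2.08, adjusted p = 0.369, edgeR) and was called in D6 progeny (4.33). Parietal endoderm markers had 5 of 10 higher at D6 and 9 of 10 in D6 progeny, with medians of 5.92 and 3.61. Lama1, a laminin chain, had log2 fold changes of 7.82 and 5.06, Col4a1 and Col4a2, collagen IV chains, of 7.77 and 3.53 and of 6.54 and 3.24, and Sparc of 6.01 and 2.54. Between the arms, D6 Sox1-FoxA2+ cells had 0 of 11 visceral and 0 of 10 parietal endoderm markers called, with medians of -0.89 and 0.60, beside the -3.82 of Apoe. Without replicate 3 of the D6 Sox1+FoxA2- cells 2 parietal markers were called at D6 instead of 5. With single libraries left out, Col4a1 at D6 passed in 2 of 6 fits (adjusted p up to 0.129, edgeR) and Col4a2 in 4 of 6. In a fit of all 57 libraries, 0 endoderm transcription factors, 1 visceral endoderm marker and 1 receptor were called in D6 progeny.

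Markers of other cells that make these carriers were measured beside them. Macrophages are a source of Apoe. Of 5 macrophage markers none was called at D6, where their summed normalized counts were 466 to 860 in Sox1-FoxA2+ and 1028 to 1475 in Sox1+FoxA2- cells. In D6 progeny Csf1r alone rose (4.35), and the sums were 710 to 1442 against 394 to 498. Choroid plexus is a source of Ttr, and none of its 5 tested markers was called at D6 in either arm. Their sums were 1253 to 2222 against 1014 to 1184 at D6 and 1176 to 3784 against 379 to 692 in D6 progeny. Of the neuroectoderm markers Pax6 and Map2 fell in Sox1-FoxA2+ cells at D6, and Pax6 and Nes in D6 progeny. Of the pluripotency markers Klf4 alone was called, higher in D6 progeny. Of the mesenchyme and neural crest markers Pdgfra rose in both arms and Twist1 fell in the progeny, but Pdgfra at D6 had an adjusted p of 0.0874 (edgeR) with the replicate block, and the calls of Pax6, Map2 and Pdgfra at D6 were each lost without 1 or another single library. In D6 progeny Pdgfra passed in 1 of 6 fits with a library left out (adjusted p up to 0.164, edgeR), Pax6 in 4 of 6 and Twist1 in 5 of 6. None of the tested astroglia, oligodendrocyte, or definitive endoderm and mesendoderm markers was called at D6 or in D6 progeny. In D4 progeny of the same gates, Slc1a3 (astroglia, -2.74), Mbp (oligodendrocyte, 2.00), Clic6 (choroid plexus, 5.04) and Csf1r (macrophage, 3.67) were called (log2 fold changes, edgeR). Prrx1 (-3.34) and Twist1 (-1.73), both of the mesenchyme and neural crest markers, fell there, while Pdgfra (1.32) and Klf4 (2.10) rose. The part of any of these cells in the levels of the carriers was not tested.

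**Figure D4:**
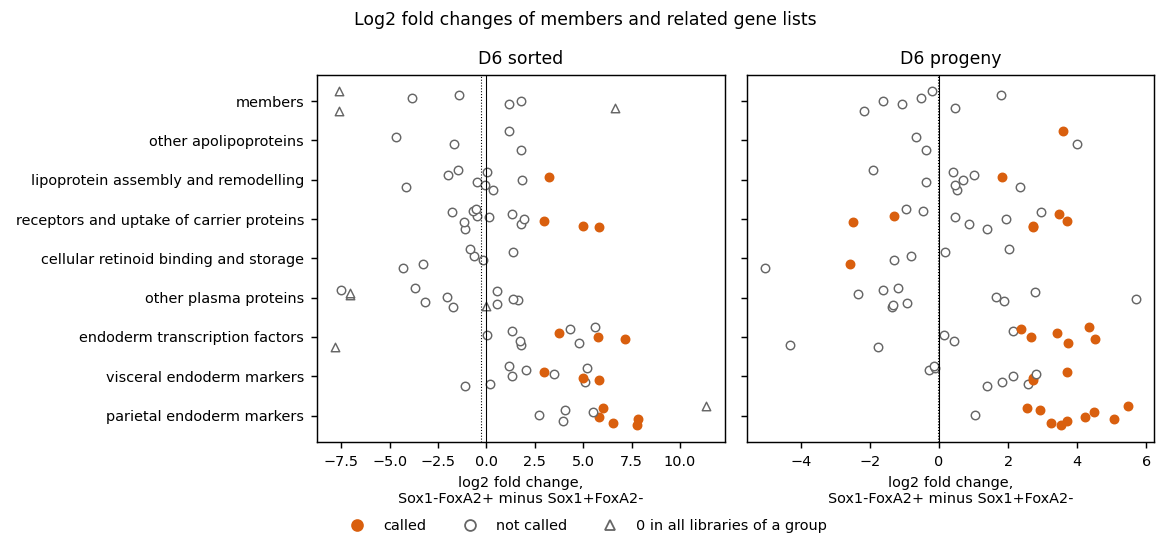
Fitted log2 fold changes of Sox1-FoxA2+ minus Sox1+FoxA2- cells at D6 (left) and in D6 progeny (right) for the members and 8 related gene lists; filled points passed an adjusted p of 0.05, triangles mark genes at 0 in all libraries of one group, whose fitted value is no bound, and the dotted line is the median of all genes. The members lie on both sides of 0 with no call, and called genes of the endoderm lists lie to the right. Lists were not tested against each other.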

How the data were processed

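Per the labels and the study's methods, libraries of sorted cells came from the SMART-Seq Stranded Kit; STAR, SAMtools and featureCounts, with GENCODE M21 (GRCm38), were used by the authors for alignment and counting; tool versions and the strand and overlap settings are not given in the sources used here. The deposited values are raw counts per gene. Whole genes, introns included, appear to have been counted without strand, since genes inside other genes are at 0, and 80.6% of counts above 0 are even, as when both reads of a pair are counted. The 92 lines naming no gene hold 0 counts and were dropped. No libraries were identical.

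Genes were tested on the counts with edgeR 4.0.16 in R 4.3.3 (TMM, filterByExpr at its minimum count 10 and total 15, robust quasi-likelihood fit, prior count 0.125, two-sided, Benjamini-Hochberg over all genes tested, threshold 0.05), with all groups of a day and arm in a fit. Normalized counts used size factors of DESeq2 1.42.0 over all 57 libraries. The members and lists were chosen with earlier results of these data known. The rule for named genes took all 9 members in every comparison, but the text prints the fitted values of only some of them in most comparisons, mainly Apoe; of each list up to 4 genes are named, those with the largest change among called genes in the D6 comparisons, or the most abundant, and 1 gene that this rule names is not reported here. For each member the 3 non-member genes with the highest correlation were listed. The scripts were tested on simulated data.

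Replicate numbers recur in the labels of all groups. Over the 5000 most abundant genes, deviations of libraries with one number correlated above 0.1 for every number in 9 of 19 pairs of groups, among them Sox1-FoxA2+ and Sox1+FoxA2- at D4 and D6 and all pairs of D4 progeny. Over the 5000 most variable genes this held in 0 of 19. Where it held over abundant genes, the value with a replicate block is given if it changes a call. The replicates are biological replicates per the study, and p-values measure the spread between them. Alternatives were DESeq2's Wald test, RLE scaling, no filter, the replicate block, other sets of libraries in the fit, TMM-scaled levels and each library left out in turn.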

Additional observations from a re-analysis of the deposited data

Results flagged for a closer look

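At D6 the 2 arms showed opposite directions for Apoe in Sox1-FoxA2+ relative to Sox1+FoxA2- cells. Every directly sorted Sox1-FoxA2+ library was above every Sox1+FoxA2- library, and every Sox1-FoxA2+ progeny library was below every Sox1+FoxA2- progeny library. Of all genes, 23.2% did not overlap in the comparison of sorted cells and 26.1% in that of the progeny. The change of the difference from sorted cells to progeny was -3.26 on the log2 scale (SE 0.78), with an adjusted p of 0.157 by edgeR. The adjusted p ranged from 0.00268 to 0.332 over 18 alternatives, and the value from -3.77 to -2.81. Replating, serum medium and the day of gating (D2 for progeny, D6 for sorted cells) go with the arm and cannot be told apart.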

How the results depend on the processing

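The call of Apoe in D6 Sox1-FoxA2+ progeny against sorted cells held in all 12 alternatives, with values from -4.03 to -3.62 and adjusted p up to 0.0380. RLE scaling, a fit of all 57 libraries and leaving out single libraries changed the count of members called in no comparison. DESeq2's Wald test called 1 member instead of 0 in 7 comparisons. These were Apoe at D6 and in D6 progeny (Sox1-FoxA2+ against Sox1+FoxA2-), in D4 progeny (Sox1+FoxA2+ against Sox1-FoxA2+), from D4 to D6 progeny and in the interaction, Rbp4 in D6 progeny (Sox1+FoxA2+ against Sox1+FoxA2-, adjusted p = 0.0273), and Ttr from D2 to D6. Without the filter on low counts it was also 1 instead of 0 in 7 comparisons, the same except that Apoe in D4 Sox1+FoxA2+ against Sox1-FoxA2+ cells took the place of Ttr. With only the compared groups in the fit it was 1 in D6 progeny and in the interaction, Apoe in both.

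With the replicate block it was 1, Apoe, at D6 (1.95, adjusted p = 0.0167), in D4 progeny (Sox1+FoxA2+ against Sox1-FoxA2+) and in D6 progeny (-1.62, adjusted p = 0.0325), where the pairing was not established; the block changed no other call of a member. In the comparison at D4 the block turned Apoe from 0.16 to -0.065 on the log2 scale. Leaving out 1 library, the value there ranged from -0.92 to 0.61, and at D2 from -0.54 to 3.06e-05. Rbp4 in D6 progeny (Sox1+FoxA2+) ranged from 1.05 to 3.98. Of 171 levels, 170 moved by less than 1 SD under TMM scaling; Apob in D4 Sox1+FoxA2- progeny moved to 85.3. The causes were not tested. For members with few counts, a missing call does not show that levels were alike.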
